A study of Mus musculus with 4 samples.

Results

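Fibroblasts of uninjured mouse hearts were divided by the reporter transcript eGFP, and reporter-positive cells were compared with reporter-negative cells in 2 single-cell libraries. The groups were chosen by measured values. A barcode was called a fibroblast when Col1a2, Dcn and Pdgfra together reached 10 UMIs per 10000, when Ptprc and Cdh5 had no UMI and when the cell held at least 5000 UMIs in all. Barcodes had to hold at least 500 UMIs, of which at most 20% could be mitochondrial. A UMI, or unique molecular identifier, counts 1 RNA molecule read in 1 cell. Fibroblasts with 2 or more eGFP UMIs were called positive, those with 0 were called negative, and those with 1 were put in neither group. The positive and negative groups held 2955 of the 3098 fibroblasts found in this way, out of 41766 barcodes in the 4 libraries of the study.

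Both libraries came from sorted live nucleated cells of heart digests, and the animals had been treated with tamoxifen and had no infarction. The control library came from the genotype Tcf21-MerCreMer, and the other from Tcf21-MerCreMer:flox, a knockout per its file label. The labels name neither the part of the gene that was floxed, nor the allele that supplies eGFP, nor the number or age of the animals behind a library, so this library is called deletion-labelled. The remaining 2 libraries were made after myocardial infarction and enter only the count of all barcodes. The question put to the data was how positive and negative cells of 1 library differ, and whether that difference is the same size in the deletion-labelled library as in the control.

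TCF21 is a basic helix-loop-helix transcription factor that pairs with E proteins and binds E-box motifs. In the embryonic heart it marks epicardial cells that give rise to fibroblasts, and in the adult heart it stays on in resident fibroblasts, the cells that make and maintain the collagen matrix. MerCreMer is a Cre recombinase held outside the nucleus until tamoxifen binds it. Cre then cuts out DNA between loxP sites, which can delete a floxed gene and switch on a fluorescent reporter such as eGFP in the same cell, but both events need not occur in every cell.

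The control library held 55710468 UMIs over 9149 barcodes and the deletion-labelled library 88509231 UMIs over 11541 barcodes, of which 8946 and 11175 were kept. The 2 libraries shared 28 barcode sequences. Xist had 16 and 10 UMIs and the Y-linked Ddx3y 5603 and 8859, so both libraries carried RNA of male cells. With 1 library per group there is no replicate spread and no test. The intervals given are 95% intervals that cover counting error alone, and genotype, animal and library cannot be told apart. Within a library, positive and negative cells were sequenced together. Whether they also shared animal, digest and sort is not known, since the number of animals behind a library is not given.

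The gate left 1506 fibroblasts in the control and 1592 in the deletion-labelled library. Their median score over Col1a2, Dcn and Pdgfra was 176 and 189 UMIs per 10000, far above the limit of 10. Only 1 and 9 cells had a score of 10 to under 12, while 3 and 26 cells that met all other conditions had a score of 8 to under 10. The depth limit met more cells: 20 and 9 fibroblasts held 5000 to under 5500 UMIs, and 15 and 9 cells otherwise inside the gate held 4500 to under 5000. In all, 167 and 368 such cells lay under 5000 UMIs, of which 26 and 10 had 2 or more eGFP UMIs. The conditions on Ptprc and Cdh5 took out 77 and 454 control cells and 68 and 641 deletion-labelled cells.

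Positive cells made up 43.5% (41.0 to 46.0; 655 cells) of control fibroblasts and 21.0% (19.0 to 23.1; 334 cells) of deletion-labelled fibroblasts. Negative cells made up 51.7% (778 cells) and 74.6% (1188 cells), and 73 and 70 cells had exactly 1 eGFP UMI. The median of the positive cells was 14 eGFP UMIs in the control, with a range of 2 to 65, and 22 in the deletion-labelled library, with a range of 2 to 80. Between 2 and 7 eGFP UMIs were found in 36 cells (2 or 3) and 89 cells (4 to 7) of the control, and in 15 and 21 cells of the deletion-labelled library. Thinned to 5000 UMIs per cell, 45.2% and 22.5% of fibroblasts had an eGFP UMI, against 48.3% and 25.4% at full depth, so the smaller positive share of the deletion-labelled library was present at equal depth too.

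**Figure D1:**
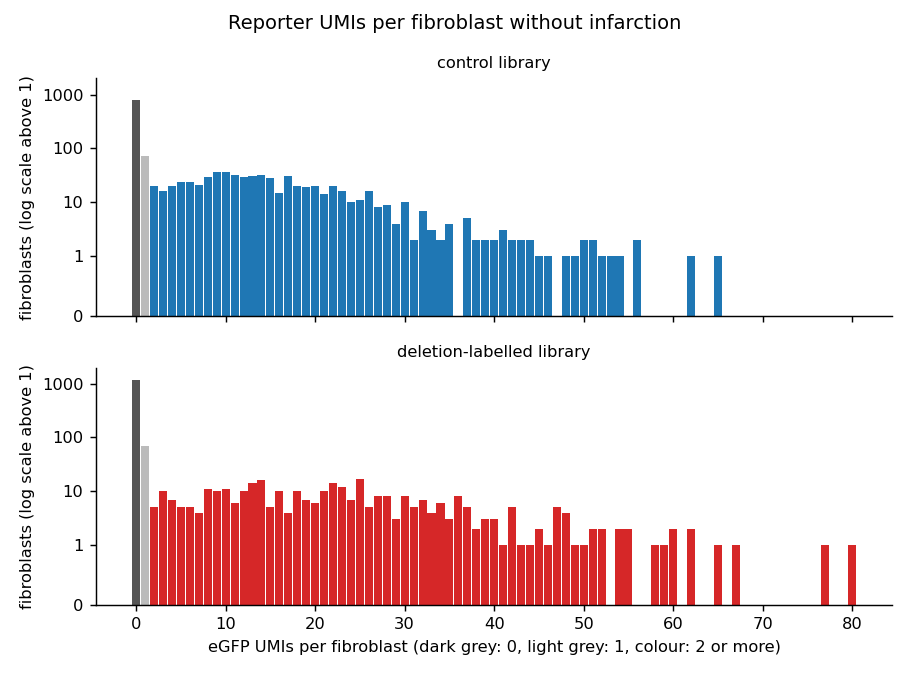
Fibroblasts (log scale above 1) by their number of eGFP UMIs, control library above and deletion-labelled library below; dark grey bars are cells with 0, light grey bars cells with 1 and coloured bars cells with 2 or more. The coloured cells have medians of 14 and 22 UMIs, and the dark grey bars stand for 778 and 1188 cells.

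eGFP UMIs were also found in cells of other types, and whether they came from free RNA in the droplets, doublets or expression was not tested. At least 1 eGFP UMI was found in 9.57% of control and 8.87% of deletion-labelled endothelial cells, at median depths of 3832 and 5474 UMIs, against medians of 10620.5 and 13391 in fibroblasts. At 2 or more UMIs, the limit used here, the endothelial shares were 0.952% (44 of 4621 cells) and 1.26% (78 of 6202 cells). Leukocytes stood at 1.08% and 1.34%, and mural cells, the cells that wrap small vessels, at 4.23% (6 of 142) and 1.47% (7 of 475). At 8 or more eGFP UMIs there were 1 and 2 mural cells, and 3 endothelial cells of the deletion-labelled library. Thinned to 2000 UMIs per cell, a step that left out between 160 and 242 shallower endothelial cells per library, eGFP was found in 4.86% and 3.38% of endothelial cells and in 40.6% and 19.8% of fibroblasts. Most cells of other types that had eGFP thus had fewer than 2 UMIs of it.

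Positive and negative cells were of similar quality within each library. Median depth was 10933 UMIs in positive and 10269 in negative control cells, and 13265 and 13412.5 in the deletion-labelled library. The median number of genes per cell was 3581 and 3468 for the control, against 3944 and 3988.5 for the deletion-labelled library. Mitochondrial UMIs had medians of 3.26% and 3.36%, and of 3.73% and 3.86%, again with positive cells first. The summed groups held 7384257 UMIs (control positive), 8335964 (control negative), 4622258 (deletion-labelled positive) and 16564079 (deletion-labelled negative). Levels below are CPM, the UMIs of a gene per 1000000 UMIs of the summed cells, and ratios are given as the log2 ratio of CPM, positive over negative.

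The Cre transcript was found almost solely in positive cells of the control, and mostly in positive cells of the deletion-labelled library. MerCreMer had 131 UMIs in 112 of 655 positive control cells (17.1%, 14.3 to 20.2) and 3 UMIs in 3 of 778 negative cells, or 17.7 against 0.36 CPM, a log2 ratio of 5.62 (4.04 to 7.92). In the deletion-labelled library it had 55 UMIs in 48 of 334 positive cells (14.4%, 10.8 to 18.6) and 17 UMIs in 14 of 1188 negative cells, or 11.9 against 1.03 CPM, a log2 ratio of 3.54 (2.73 to 4.41). None of the 73 and 70 cells with a single eGFP UMI held MerCreMer, and 1 MerCreMer UMI was read in all endothelial cells of each library. The difference between the 2 log2 ratios was -2.09 (-4.54 to -0.20), on 3 and 17 UMIs in negative cells. With each cell thinned to 5000 UMIs and called positive at any eGFP UMI left it was 0.15. That value cannot be read as a change, because negative cells then held 2 and 1 MerCreMer UMIs, control first. Ratios raise sums under 3 UMIs to 3, so this floor set both negative levels. Classes of 2 to 3, 4 to 7, 8 to 15 and 16 or more eGFP UMIs were also summed. In that order MerCreMer stood at 5.67, 19.1, 17.0 and 19.2 CPM in the control, on 2, 16, 45 and 68 UMIs. The deletion-labelled values were 9.50, 4.05, 11.1 and 13.0 CPM on 2, 1, 12 and 40 UMIs.

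Tcf21, the targeted gene, differed between positive and negative cells in opposite directions in the 2 libraries. In the control it stood at 110 CPM (103 to 118; 814 UMIs) in positive and at 78.2 CPM (72.3 to 84.5; 652 UMIs) in negative cells, a ratio of 1.41 or 0.50 in log2 units (0.34 to 0.65). In the deletion-labelled library it stood at 87.6 CPM (79.3 to 96.6; 405 UMIs) in positive and at 164 CPM (157 to 170; 2709 UMIs) in negative cells, 1.87-fold lower, with a log2 ratio of -0.90 (-1.05 to -0.75). The lowest of the 4 levels was that of control negative cells and the highest that of deletion-labelled negative cells, and no counting interval of 1 group overlapped that of its partner in the same library. The difference of the 2 log2 ratios was -1.40 (-1.61 to -1.18).

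The 4 sums of Tcf21 can also be read between the libraries. Negative cells of the deletion-labelled library stood 2.09-fold above those of the control, a log2 ratio of 1.06 (0.94 to 1.19), whereas positive cells stood 1.26-fold below, at -0.33 (-0.51 to -0.16). Most of the difference therefore lay in the negative cells. The share of cells with a Tcf21 UMI gave the same order at equal depth: thinned to 5000 UMIs it was 30.2% (27.0 to 33.6) in control negative, 38.8% (35.0 to 42.6) in control positive, 46.7% (43.8 to 49.6) in deletion-labelled negative and 32.6% (27.6 to 37.95) in deletion-labelled positive cells. At full depth these shares were 51.0%, 60.2%, 75.3% and 57.2%. In endothelial cells thinned alike the share was 0.543% and 0.742%, so all 4 groups of fibroblasts were far above these endothelial cells. This thinning kept 1289 control and 3638 deletion-labelled endothelial cells and left out 3332 and 2564 shallower ones. Endothelial shares of single genes given below are of the same cells.

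Along the reporter scale of the deletion-labelled library the step in Tcf21 lay between 1 and 2 eGFP UMIs. Cells with 0 and with 1 eGFP UMI had 164 and 162 CPM (138 to 189), and the next classes, 2 to 3, 4 to 7, 8 to 15 and 16 or more eGFP UMIs, had 61.7, 85.0, 104 and 83.9 CPM. Control cells had 78.2 and 84.7 CPM with 0 and 1 eGFP UMI, followed by 96.3, 105, 104 and 117 CPM. The classes of 2 to 3 and 4 to 7 UMIs were small in the deletion-labelled library, with 15 and 21 cells, and their intervals were wide, as the plot of levels by reporter class shows. Since cells with 1 eGFP UMI resembled negative cells in Tcf21, counting them as positive moved the deletion-labelled log2 ratio to -0.70 and the difference to -1.16.

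**Figure D2:**
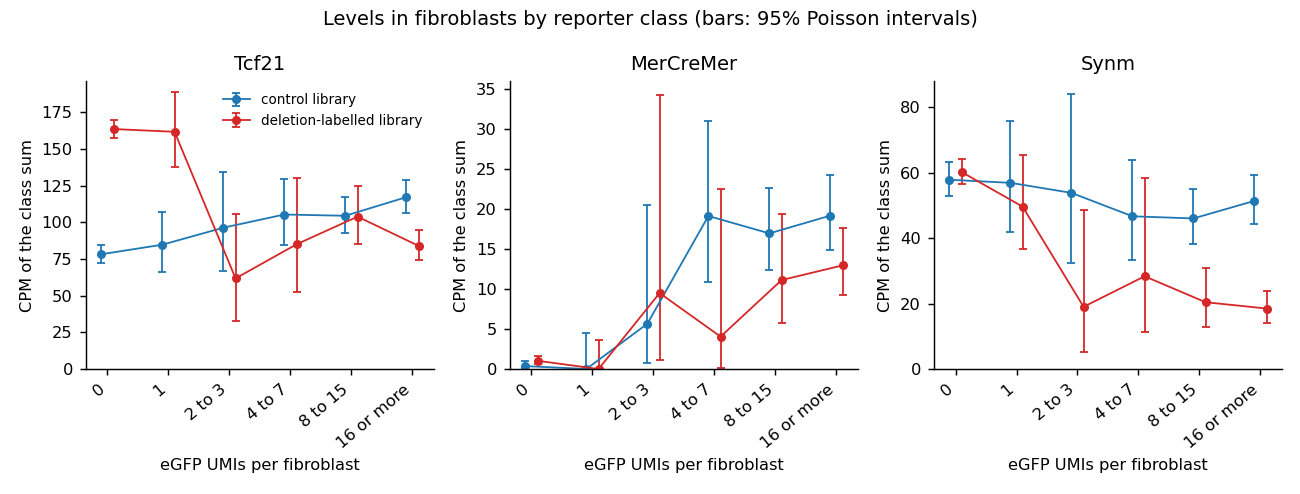
CPM of Tcf21, MerCreMer and Synm in fibroblasts summed by their number of eGFP UMIs, control library in blue and deletion-labelled library in red; bars are exact 95% Poisson intervals. In the deletion-labelled library Tcf21 drops from 162 CPM at 1 eGFP UMI to 61.7 CPM at 2 to 3, and Synm stands below 30 CPM in the 4 classes of positive cells.

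In mm10 Tcf21 (ENSMUSG00000045680, protein coding) lies on chromosome 10 from 22817281 to 22820174 on the minus strand, per GENCODE M21. The annotation gives a transcript of 2 exons, with coding sequence at 22819454 to 22819903 and 22817740 to 22817826, and a transcript of 1 exon from 22818372 to 22820159. The assay reads the 3' ends of transcripts, so a Tcf21 UMI does not show whether the coding exons were whole, and no value here measures the deletion itself. The sequence next to the gene's start is shown because E-boxes, written CANNTG, are the motif that bHLH factors bind. It is given 5′ to 3′ on the strand of the gene, from RefSeq's window in GRCm38.p6 (mm10), and covers the 219 bases before the GENCODE start at chr10:22820175-22820393.
Tcf21: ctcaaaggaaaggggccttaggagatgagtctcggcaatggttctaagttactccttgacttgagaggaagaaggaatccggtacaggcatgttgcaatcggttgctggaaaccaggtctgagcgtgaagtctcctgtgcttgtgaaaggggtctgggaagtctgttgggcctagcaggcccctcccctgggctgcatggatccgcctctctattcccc
Neither CANNTG nor CAGCTG, which is one form of it, was found in the 250 bases before the RefSeq start of Tcf21. Both motifs read the same on either strand, and matches would stand in capitals. Of 32851 RefSeq windows of this length 66.2% hold CANNTG and 13.0% hold CAGCTG.

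Across all genes the 2 reporter groups of a library were close to each other. A gene needed 30 UMIs in at least 1 sum of a comparison, and a CPM ratio of 1.5 or more in either direction, 0.58 in log2, was the limit for a difference. That limit concerns size alone and tests nothing. In the control 100 of 10847 genes were higher (0.922%) and 185 lower (1.71%) in positive cells. In the deletion-labelled library 249 of 11839 were higher (2.1%) and 496 lower (4.19%). The positive group is smaller there, and whether this bears on the counts was not tested. The difference of the log2 ratios passed 1.5-fold in 541 of 11376 genes upward (4.76%) and in 442 downward (3.89%). Among well measured genes, with at least 50 CPM in 1 of the sums, the counts were 4 higher and 1 lower of 3634 in the control, 15 higher and 23 lower of 3515 in the deletion-labelled library, and 31 and 26 of 3842 for the difference. Over 3044 genes with at least 50 CPM in all 4 sums the log2 ratios had an SD of 0.095 in the control and 0.136 in the deletion-labelled library. Their Pearson correlation across genes was -0.0045, a description over genes that share libraries and depth. The part of counting error in these SDs and in the correlation was not measured.

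**Figure D3:**
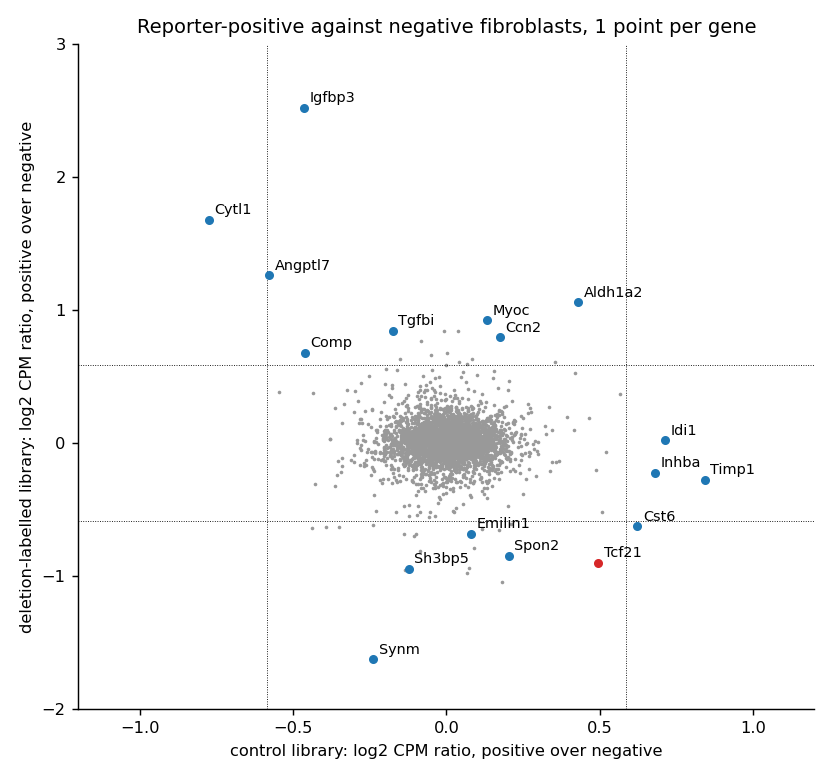
Each of 3813 genes by its log2 CPM ratio of positive over negative fibroblasts in the control library (horizontal) and the deletion-labelled library (vertical); dotted lines mark 1.5-fold, and named genes are in colour. Most genes crowd around 0 in both directions, while Igfbp3, Cytl1 and Angptl7 lie above and left of the crowd and Tcf21 and Cst6 below and right of it.

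In the deletion-labelled library the 3 highest ratios among genes with at least 50 CPM were in genes of secreted proteins, Igfbp3, Cytl1 and Angptl7. Igfbp3, which binds insulin-like growth factors, stood at 186 CPM (174 to 199) in positive and 32.5 CPM (29.8 to 35.3) in negative cells, a 5.74-fold excess and a log2 ratio of 2.52 (2.36 to 2.68). In the control it stood at 51.1 and 70.4 CPM, a log2 ratio of -0.46 (-0.65 to -0.27). The deletion-labelled positive cells were thus above the other 3 groups, and the difference of the log2 ratios was 2.98 (2.74 to 3.23). The 70 deletion-labelled cells with 1 eGFP UMI, which are in none of the 4 groups, stood at 171 CPM (146 to 198) on 7 cells with an Igfbp3 UMI, close to the positive cells. Few cells carried it: thinned to 5000 UMIs, 13.5% (10.0 to 17.6) of deletion-labelled positive cells had an Igfbp3 UMI against 5.05% (3.88 to 6.45) of negative cells, and 7.33% and 6.68% in the control. A single positive cell held 21.5% of the group's UMIs, and without the highest cell of each group the log2 ratio was 2.39. Thinned to 5000 UMIs per cell, with any eGFP UMI left counted as positive, it was 1.86 and the difference 2.12. Endothelial cells also carry Igfbp3, with a UMI in 26.1% and 24.3% of thinned cells. Without fibroblasts that had a UMI of any of a set of markers of other cell types, among them Pecam1, Kdr, Rgs5 and Tyrobp, the deletion-labelled log2 ratio of Igfbp3 was 2.59 and the control one 0.31, so the direction in the control depends on those cells.

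Angptl7, a secreted angiopoietin-like protein, stood at 171 CPM (159 to 183) in deletion-labelled positive and 71.2 CPM (67.2 to 75.4) in negative cells, a 2.4-fold excess and a log2 ratio of 1.26 (1.13 to 1.39). In the control it was 1.49-fold lower in positive cells, at 23.6 (20.2 to 27.3) against 35.1 CPM (31.2 to 39.4). Its shares of thinned cells followed the levels, at 27.5% (22.8 to 32.7) and 13.1% (11.3 to 15.2) in the deletion-labelled library and 6.87% and 9.38% in the control, positive cells first. No cell held more than 7.47% of a group's UMIs, and endothelial cells had a UMI in 0.310% and 0.467%. Angptl7 was higher in the deletion-labelled than in the control library in both kinds of cell, by a log2 ratio of 2.86 (2.62 to 3.10) in positive and 1.02 (0.83 to 1.21) in negative cells. The difference between the reporter comparisons was 1.84 (1.53 to 2.15).

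Cytl1, a small secreted protein of cartilage, stood at 87.0 and 27.2 CPM in deletion-labelled positive and negative cells, a log2 ratio of 1.68 (1.48 to 1.88), and at 27.6 and 47.3 CPM in the control, a log2 ratio of -0.77 (-1.03 to -0.53). This gene rested on single cells. One positive cell of the deletion-labelled library held 40.8% of the UMIs, and the thinned shares of cells with a UMI were only 5.09%, 2.1%, 2.9% and 3.21%, in the same order.

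Other genes of this side were more evenly spread over cells. Aldh1a2, the enzyme that makes retinoic acid, stood at 154 and 74.0 CPM in deletion-labelled positive and negative cells, a log2 ratio of 1.06 (0.92 to 1.19), and at 129 and 96.0 CPM in the control, a log2 ratio of 0.43 (0.29 to 0.57). It was higher in positive cells of both libraries, and among the genes named here it was the only one in the 10 highest of both. In the control it stood at 39.7, 105 and 106 CPM with 2 to 3, 4 to 7 and 8 to 15 eGFP UMIs. With 16 or more it stood at 162 CPM. Thinned to 5000 UMIs per cell, its control log2 ratio was 0.27. Myoc, the secreted glycoprotein myocilin, stood at 266 against 140 CPM, a log2 ratio of 0.92, and at 178 against 163 CPM in the control. Tgfbi, a matrix protein induced by TGF-beta, stood at 305 against 170 CPM in the deletion-labelled library, a log2 ratio of 0.84 (0.75 to 0.94), and at 196 against 221 CPM in the control, a log2 ratio of -0.18 (-0.28 to -0.08). Cells with a Tgfbi UMI after thinning made up 62.3% of deletion-labelled positive cells and between 44.7% and 50.5% of the other groups. Olfml2b, a secreted olfactomedin-domain protein, had log2 ratios of 0.84 and 0.04, deletion-labelled first. Ccn2, the connective tissue growth factor, had 0.79 and 0.17, Galnt15, a glycosyltransferase of the Golgi, 0.77 and -0.08, and Comp, a cartilage matrix protein, 0.68 and -0.46. Ccn2 differed between the libraries in negative cells, at 310 CPM in the deletion-labelled and 467 CPM in the control library, and hardly in positive cells, at 537 and 527 CPM.

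On the lower side of the deletion-labelled library Synm, which codes for the intermediate filament protein synemin, had the lowest ratio among genes with at least 50 CPM in either sum, genes of other cell types left aside. It stood at 19.5 CPM (15.7 to 23.9) in positive and 60.2 CPM (56.5 to 64.0) in negative cells, 3.09-fold lower, with a log2 ratio of -1.63 (-1.96 to -1.32). In the control it stood at 49.0 CPM (44.1 to 54.3) and 57.8 CPM (52.8 to 63.2), a log2 ratio of -0.24 (-0.44 to -0.04). The deletion-labelled positive cells were low and the other 3 groups lay close together, a pattern opposite in sign to that of Igfbp3. Thinned shares of cells with a Synm UMI were 9.58% in deletion-labelled positive cells and 24.7%, 20.2% and 22.5% in deletion-labelled negative, control positive and control negative cells. Endothelial cells carry Synm at a like share, 20.1% and 20.3%. Along the reporter scale Synm stood at 49.6 CPM (36.8 to 65.4) in deletion-labelled cells with 1 eGFP UMI and at 19.0, 28.3, 20.4 and 18.5 CPM in the 4 classes above. Without cells that had UMIs of other types the deletion-labelled log2 ratio of Synm was -1.45 and the control one -0.55.

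The windows before the RefSeq starts of Igfbp3, Angptl7 and Synm are shown because these genes separate the deletion-labelled positive cells from the other groups in opposite directions. Each is 250 bases of GRCm38.p6 (mm10) on the minus strand, the strand of all 3 genes, 5′ to 3′, with every CANNTG in capitals. They lie at chr11:7213924-7214173, chr4:148500463-148500712 and chr7:67759743-67759992, upstream of the GENCODE M21 bounds of these protein-coding genes.
Igfbp3: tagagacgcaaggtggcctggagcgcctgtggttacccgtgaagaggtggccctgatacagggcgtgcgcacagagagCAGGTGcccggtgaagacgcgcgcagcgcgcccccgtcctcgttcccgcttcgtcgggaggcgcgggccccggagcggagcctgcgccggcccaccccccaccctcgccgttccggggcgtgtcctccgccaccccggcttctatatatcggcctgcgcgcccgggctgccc
Angptl7: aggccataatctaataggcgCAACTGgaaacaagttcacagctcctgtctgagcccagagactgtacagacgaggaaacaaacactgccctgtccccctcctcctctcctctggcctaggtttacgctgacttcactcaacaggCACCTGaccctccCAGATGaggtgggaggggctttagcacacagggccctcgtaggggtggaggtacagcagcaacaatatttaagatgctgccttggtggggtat
Synm: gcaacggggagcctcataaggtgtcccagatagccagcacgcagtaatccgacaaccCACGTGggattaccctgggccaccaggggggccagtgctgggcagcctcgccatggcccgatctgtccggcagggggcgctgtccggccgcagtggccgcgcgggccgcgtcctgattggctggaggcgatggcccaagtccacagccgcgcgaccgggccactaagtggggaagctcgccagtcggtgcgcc
Igfbp3 has 1 match to CANNTG, Angptl7 has 3 and Synm has 1, against a median of 1 over all windows, and none has CAGCTG. Of other genes named here whose windows were searched but are not shown, Myoc has 1 match to CANNTG. Cytl1, Tgfbi and Timp1 have 0. A match here is a description of the letters and says nothing on binding.

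Further genes were lower in deletion-labelled positive cells without a like difference in the control. Sh3bp5, which codes for an SH3-domain binding protein, stood at 55.0 against 106 CPM, a log2 ratio of -0.95 (-1.14 to -0.76), and at 94.9 against 103 CPM in the control, a log2 ratio of -0.12 (-0.27 to 0.02). Spon2, a secreted matrix protein, stood at 108 against 195 CPM, a log2 ratio of -0.85 (-0.99 to -0.71), and at 120 against 104 CPM in the control, a log2 ratio of 0.20 (0.07 to 0.34). The low value of Synm and Sh3bp5 lay in the deletion-labelled positive cells. Spon2 instead was high in the deletion-labelled negative cells, as was Tcf21.

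The remaining genes of this side had log2 ratios between -0.98 and -0.68 in the deletion-labelled library and between -0.14 and 0.09 in the control. They were Ackr4, a scavenging chemokine receptor, at -0.98, the small GTPases Gem at -0.94 and Rem1 at -0.69, the peptidase inhibitor Pi15 at -0.81, the heparan sulfate sulfotransferase Hs3st1 at -0.79, the growth factor Bmp6 at -0.68 and the elastic fibre protein Emilin1 at -0.68. Emilin1 was the best measured of them, at 125 against 200 CPM in the deletion-labelled and 181 against 171 CPM in the control library. Ecrg4 also passed the rule, at -1.04, but 82.2% of its UMIs in deletion-labelled positive cells came from 1 cell.

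**Figure D4:**
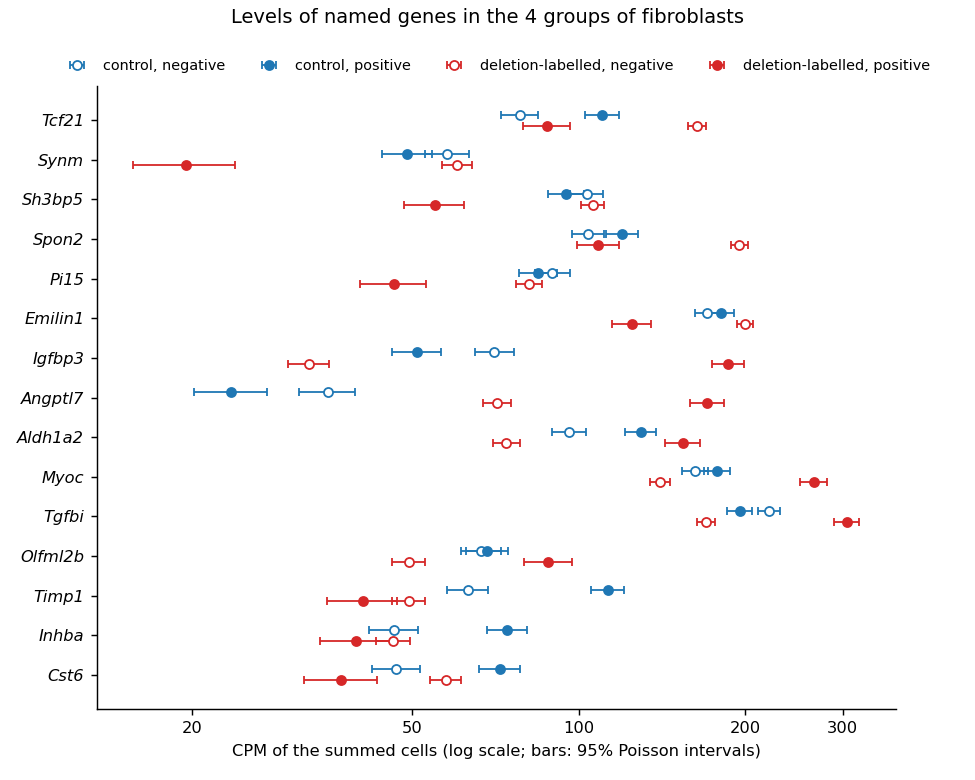
CPM (log scale) of 15 genes in the 4 groups of fibroblasts, open points for negative and filled points for positive cells, blue for the control and red for the deletion-labelled library; bars are exact 95% Poisson intervals. For Synm, Sh3bp5 and Pi15 the filled red point lies left of the 3 others, for Igfbp3, Angptl7 and Tgfbi it lies right of them, and for Timp1, Inhba and Cst6 the filled blue point lies right.

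In the control library fewer genes differed, and the highest ratios were in other genes. Timp1, which blocks matrix metalloproteases, stood at 113 CPM (105 to 121) in positive and 63.0 CPM (57.7 to 68.6) in negative cells, a 1.79-fold excess and a log2 ratio of 0.84 (0.68 to 1.003). Deletion-labelled cells stood at 40.7 against 49.3 CPM, a log2 ratio of -0.28 (-0.51 to -0.05). Single cells weighed on it, with 15.6% and 14.7% of the UMIs in the top control positive and negative cells, and thinned shares were 17.6% and 14.1%. Averaged over bins of equal depth, the difference of -1.12 was -0.37. Inhba, the subunit of activin A, stood at 74.2 against 46.3 CPM, a log2 ratio of 0.68 (0.49 to 0.87), and at 39.6 against 46.2 CPM in the deletion-labelled library. Cst6, a cysteine protease inhibitor, stood at 72.0 against 46.8 CPM, a log2 ratio of 0.62 (0.43 to 0.82), and at 37.2 against 57.5 CPM in the deletion-labelled library, a log2 ratio of -0.63 (-0.87 to -0.39). Its difference of -1.25 was -0.42 with cells thinned to 5000 UMIs. For Timp1, Inhba and Cst6 alike the summed control positive cells were the highest of the 4 groups. The excess was not spread over all classes of positive cells. With 2 to 3, 4 to 7, 8 to 15 and 16 or more eGFP UMIs, control Timp1 stood at 28.3, 70.6, 42.6 and 184 CPM. Its class of 8 to 15 UMIs, with 254 cells, was thus below negative cells. Control Cst6 stood at 119, 35.9, 39.96 and 99.9 CPM in that order, the first on 5 cells with a UMI.

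Idi1, an enzyme of isoprenoid synthesis, had a log2 ratio of 0.71 in the control and 0.02 in the deletion-labelled library, and Fdps, the next step of that pathway, had 0.49 and -0.20. The joint lubricant Prg4 had 0.57 and 0.37, the guidance factor Sema3c 0.52 and -0.07, and the interferon-induced GTPase Iigp1 0.47 and 0.19. A single cell held 31.4% of the Prg4 UMIs of control positive cells. Mmp3, a protease of matrix, stood at 236 against 166 CPM in the control, a log2 ratio of 0.51 (0.41 to 0.61), but at only 6.06 and 8.69 CPM in the deletion-labelled library. That gene was 38.9-fold lower in the positive and 19.0-fold lower in the negative cells of the deletion-labelled than of the control library, so its large distance between the libraries was there in both kinds of cell.

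On the lower side of the control, after Cytl1 and Angptl7, the chemokine Ccl11 stood at 80.04 against 117 CPM, a log2 ratio of -0.54 (-0.69 to -0.40), and at 124 against 94.8 CPM in the deletion-labelled library, a log2 ratio of 0.38 (0.24 to 0.52). Lifr, the receptor of leukemia inhibitory factor, had -0.43 in the control and 0.37 in the deletion-labelled library. Igfbp5, a further binding protein of insulin-like growth factors, had -0.43 and -0.31, and the heparin-binding growth factor Ptn -0.44 and -0.64. Igfbp5 and Ptn were thus lower in positive cells of both libraries, whereas Ccl11 and Lifr took opposite directions. The genes that set the gate, for which no result can be read, had log2 ratios of -0.03 and 0.16 (Pdgfra), -0.05 and 0.20 (Dcn) and 0.05 and 0.01 (Col1a2), control first.

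Genes were then grouped by function, and a member entered the count from 10 UMIs in 1 sum upward. Over all genes at this limit 3.0% were higher and 4.32% lower in the control, 4.25% higher and 5.69% lower in the deletion-labelled library, and 6.77% and 6.26% passed the limit for the difference, with medians of -0.0053, -0.0015 and 0.0039. Genes of resident fibroblast identity were alike in positive and negative cells. Their list includes the gate genes Pdgfra, Dcn and Col1a2, for which no result can be read. Of 30, 0 were higher and 1 lower in either library, with median log2 ratios of -0.03 and 0.04, and the 1 lower gene, Vtn, is one that pericytes carry. Fmo2, a flavin monooxygenase, was the only member whose difference passed 1.5-fold upward, at 162 against 111 CPM in the deletion-labelled and 313 against 323 CPM in the control library.

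Genes of adventitial fibroblasts, the Pi16-carrying cells around vessels, lay slightly above 0 in the control. None of 18 passed 1.5-fold in either library, and 17 lay above 0 in the control, with a median of 0.14, against 10 in the deletion-labelled library, with a median of 0.05. Pi16 itself stood at 1162 against 959 CPM in the control and 1646 against 1401 CPM in the deletion-labelled library, and Cd248, a surface glycoprotein, at 261 against 202 CPM and 176 against 193 CPM. Sema3c was the only member with a difference past 1.5-fold, at -0.59. Weighting both groups to the same levels of Pi16 left Tcf21 at log2 ratios of 0.49 and -0.91.

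Several genes of the tendon, cartilage and Wif1 type rested on few cells. The control had 16 measured members, 1 of them higher, 4 lower, and a median of -0.40. Of 17 in the deletion-labelled library 3 were higher (Cytl1, Angptl7 and Comp) and 7 lower, with a median of -0.05. Thbs4, a thrombospondin of tendon, stood at 5.62 against 47.9 CPM in the deletion-labelled library, but 1 cell held 33.8% of the UMIs of negative cells and 38.5% of those of positive cells. Wif1, a Wnt inhibitor, had 74 and 24 UMIs in control positive and negative cells and 1 and 116 in the deletion-labelled ones, and 1 cell held at least 50% of the UMIs in each of these groups. Fmod, a collagen-binding proteoglycan, was low in positive cells of both libraries, at log2 ratios of -0.85 and -1.34, control first, again with 45.4% and 52.8% of the positive groups' UMIs in 1 cell.

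Matrix genes were mostly within 1.5-fold. Of 17 collagens 0 were higher or lower in the control and 1 was higher in the deletion-labelled library, Col14a1, a collagen that coats fibrils, at 421 against 278 CPM and a log2 ratio of 0.60 (0.52 to 0.67). Medians were 0.0067 and -0.03, with Col1a1 at 0.08 and 0.10 and Col3a1 at 0.17 and 0.02. The 17 collagens include the gate gene Col1a2. None of the 19 and 20 measured genes of collagen processing and cross-linking passed the limit. Of 36 matricellular and glycoprotein genes 3 were higher in the control (Tnc, Spp1 and Timp1), and in the deletion-labelled library Ccn2 was higher and Thbs4, Emilin1 and Eln were lower. Eln, which codes for elastin, stood at 165 against 251 CPM in the deletion-labelled and 202 against 175 CPM in the control library, log2 ratios of -0.61 (-0.72 to -0.49) and 0.21 (0.11 to 0.32). The difference passed 1.5-fold in 1 member upward and in 8 downward, with a median of -0.10.

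Of 22 TGF-beta ligands, receptors and targets 1 was higher in the control, Smad6, on 44 and 25 UMIs, and 3 in the deletion-labelled library, the targets Tgfbi, Ccn2 and Bambi. The same 3 were those with a difference past 1.5-fold, and 0 members were lower by 1.5-fold in any of the 3 comparisons. Bambi, a decoy receptor, stood at 21.9 against 12.9 CPM, with 21.8% of its positive UMIs in 1 cell. The ligand Tgfb2 had log2 ratios of -0.16 in the control and 0.16 in the deletion-labelled library. Medians over the list were 0.02 and 0.05, near those of all genes.

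Among 24 measured genes of myofibroblasts and contraction, control positive cells had 4 higher and 3 lower, and deletion-labelled positive cells had 1 higher and 2 lower. Postn, a matrix protein of activated fibroblasts, had log2 ratios of -0.14 and -0.47, control first. Acta2, the smooth muscle actin of myofibroblasts, was counted both here and with the mural genes and had log2 ratios of -0.32 (-0.65 to 0.0038) and 0.13 (-0.09 to 0.35). Of the 24 genes 5, Acta2 and Tagln among them, were marked as possible free RNA or RNA of attached cells. Tagln was one of the 3 lower in the control. Fap, a surface protease, stood at 81.7 against 100 CPM in the control and at 146 against 111 CPM in the deletion-labelled library, a difference of 0.69 (0.49 to 0.89). Tnc and Cthrc1, genes of injured tissue, passed 1.5-fold in control positive cells on 107 and 22 UMIs, of which 1 cell held 70.1% and 86.4%. Runx1, a transcription factor of activated fibroblasts, was more evenly spread, at 9.34 against 4.68 CPM in the control, a log2 ratio of 0.998 (0.41 to 1.60), and at 4.54 against 6.82 CPM in the deletion-labelled library.

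Genes of sterol synthesis, which build cholesterol and isoprenoids, lay on opposite sides of 0 in the 2 libraries. In the control 15 of 17 lay above 0, 3 of them past 1.5-fold (Sqle, Idi1 and Nsdhl), with a median of 0.34. For the deletion-labelled library 5 of 17 lay above 0, none past 1.5-fold, 1 was lower and the median was -0.20. The difference was below 0 for 17 of 17, past 1.5-fold for 7, with a median of -0.50. Sqle, squalene epoxidase, stood at 18.8 against 10.7 CPM in the control, a log2 ratio of 0.82 (0.42 to 1.22), and at 13.0 against 20.5 CPM in the deletion-labelled library, a log2 ratio of -0.66 (-1.08 to -0.26). The summed level of the list was lowest in control negative cells, at 430 CPM, and stood at 546 CPM in control positive, 602 in deletion-labelled positive and 648 in deletion-labelled negative cells. With each cell thinned to 5000 UMIs the median difference was -0.13.

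S-phase genes, needed for DNA replication, were low in all groups, with summed levels of 247 and 224 CPM in control negative and positive cells and 233 and 291 CPM in the deletion-labelled ones. Deletion-labelled positive cells had 6 of 22 higher and 1 lower (median 0.35), and control positive cells had 0 of 17 higher and 1 lower (median -0.15). Counts were small: Rrm2, a subunit of ribonucleotide reductase, stood at 5.19 against 2.48 CPM on 24 and 41 UMIs, with 41.7% of the 24 in 1 cell. Without called doublets the deletion-labelled median was 0.18 and thinned to 5000 UMIs it was 0.076. Of 24 genes of G2 and M phase only 7 and 16 had enough UMIs. Mki67, a marker of dividing cells, had 19 UMIs in deletion-labelled positive cells, of which 94.7% were in 1 cell.

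Most transcription factors of fibroblasts were alike in the 2 groups. Of 39 measured 1 was higher and 1 lower in the control, and 1 higher and 2 lower in the deletion-labelled library. Tbx20, a cardiac T-box factor, had log2 ratios of -0.10 and -0.39 and Meox1, a homeobox factor, 0.03 and 0.36, control first. The partners, inhibitors and relatives of TCF21 were also close to 0, with medians of -0.04 and 0.06 over 18. Tcf12, an E protein with which bHLH factors pair, stood at 117 against 105 CPM and 98.0 against 100 CPM. Id2, an inhibitor of E proteins, had log2 ratios of 0.02 and -0.36 and Id3 0.14 and 0.17. Twist1, a bHLH factor of mesenchyme, stood at 95.4 against 76.5 CPM in the deletion-labelled library, a log2 ratio of 0.32 (0.16 to 0.48), and at -0.02 in the control.

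Several lists had no member past 1.5-fold in either library: the 23 genes of endoplasmic reticulum folding, the 36 nuclear genes of the respiratory chain, 18 targets of p53 and 17 genes of the circadian clock. Medians of these 4 lists lay between -0.09 and 0.06. Interferon-stimulated genes had 0 of 28 past the limit in the control and 2 higher and 4 lower of 31 in the deletion-labelled library. Ifi27l2a, an interferon-induced gene of mitochondria, stood at 1158 against 1813 CPM there, a log2 ratio of -0.65 (-0.69 to -0.60), and at 1011 against 933 CPM in the control. The clock repressor Nr1d2 stood at 58.5 against 70.9 CPM in the control and 21.0 against 15.3 CPM in the deletion-labelled library, a difference of 0.73 (0.33 to 1.12). Egr3 and Egr2, immediate-early factors that tissue digestion can induce, had log2 ratios of -0.92 and -0.78 in the deletion-labelled library and 0.35 and 0.26 in the control. Their list of 30 dissociation and immediate-early genes had 2 higher and 0 lower in the control, with a median of -0.13. For the deletion-labelled library 1 was higher and 3 were lower, with a median of -0.20. Of 14 complement genes 1 was higher in each library, Cfb in the control and C4b in the deletion-labelled one, the latter at 37.6 against 20.8 CPM.

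**Figure D5:**
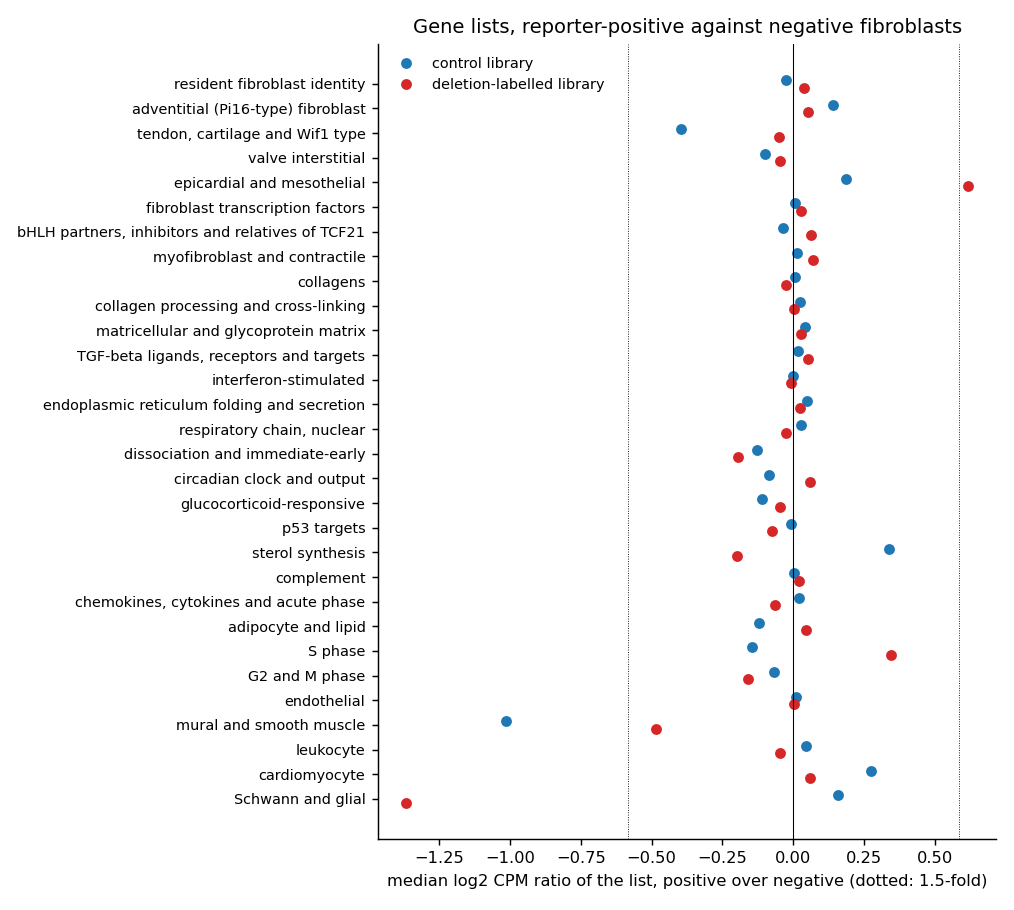
Median log2 CPM ratio of positive over negative fibroblasts for each gene list, control library in blue and deletion-labelled library in red; dotted lines mark 1.5-fold. Most lists lie near 0 in both libraries, the mural points lie at -1.01 and -0.48 (-0.56 and 0.013 with the gate at 30 per 10000), the deletion-labelled Schwann point at -1.37 (-0.26 with that gate), and the epicardial point rests on 3 genes or fewer.

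Transcripts of other cell types differed between the groups as well. Of 15 mural and smooth muscle genes 11 were lower and 0 higher in control positive cells, with a median of -1.01, and 7 lower and 0 higher in deletion-labelled positive cells, with a median of -0.48. Their summed level was 334 against 532 CPM in the control and 582 against 794 CPM in the deletion-labelled library, positive cells first, and no member was at 0. Rgs5, a marker of pericytes, stood at 8.26 against 69.5 CPM and at 39.4 against 188 CPM. All 15 stood in fibroblasts under 0.1 of their level in an endothelial, leukocyte or mural gate and were marked as possible free RNA or RNA of attached cells. Of 8 Schwann and glial genes measured in the deletion-labelled library 6 were lower, with a median of -1.37 and summed levels of 50.8 against 87.5 CPM, and 4 members were at 0 in positive cells. In the control only 4 were measured, 0 of them lower and 1 higher (S100b), with a median of 0.16. The control summed levels were 70.4 against 66.1 CPM.

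These medians depended on the cells kept. With the fibroblast gate at 30 per 10000, which kept 654 positive and 774 negative control cells and 334 and 1169 deletion-labelled cells, the mural medians were -0.56 and 0.013, control first, and the deletion-labelled Schwann median was -0.26. The part of these transcripts in the other results was not tested. Fibroblasts without any UMI of that set of markers of other cell types numbered 389 positive and 449 negative control cells, and 145 and 490 deletion-labelled cells. Among them the mural medians were -0.24 and 0.61, the deletion-labelled Schwann median was -0.05, and Tcf21 had log2 ratios of 0.38 and -0.89, a difference of -1.27. Angptl7 had -0.53 and 0.95, and Timp1 0.77 and -0.84, control first. Summed levels of endothelial genes were 461 against 481 CPM and 551 against 553 CPM, those of leukocyte genes 182 against 180 CPM and 100.4 against 104 CPM, and those of cardiomyocyte genes 293 against 270 CPM and 290 against 270 CPM, positive cells first. In each group 1 endothelial gene and 1 leukocyte gene were at 0, and the gate required this of Cdh5 and Ptprc. Of 3 epicardial genes measured in the deletion-labelled library Aldh1a2 and Wt1 were higher in positive cells, and between 7 and 10 of the 13 were at 0 in each group.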

How the data were processed

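Single-cell RNA was read at the 3' end with the 10x Genomics v3.1 kit in live nucleated cells sorted from heart digests, per the labels' protocols. The deposited matrices hold raw UMI counts per gene and barcode, made by the authors with Cell Ranger 5.0.1 against mm10, per the submitters' processing notes. The 32287 features include 2 added ones, eGFP and MerCreMer. Other cell filters of the authors are not given in the sources used here.

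The members and gene lists were chosen with earlier results of these data known. Counts of positive and of negative fibroblasts were summed per library and scaled to CPM with Python 3.11.15, numpy 2.4.6, scipy 1.17.1 and pandas 2.3.3. In log2 ratios a sum under 3 UMIs was raised to 3. Intervals are 95% exact Poisson intervals for CPM, exact Clopper-Pearson intervals for shares, and exact conditional intervals for log2 ratios and their differences. With 1 library per group no p-value was computed. Genes needed 30 UMIs in at least 1 sum of a comparison, and list members 10. The difference also needed at least 10 UMIs in every sum, and for list members enough UMIs in both libraries.

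Genes were named by a rule: with at least 50 CPM and 30 UMIs in 1 sum, and without mitochondrial, gate and reporter genes and genes under 0.1 of their level in endothelial, leukocyte or mural cells, the 10 highest and 10 lowest log2 ratios in each library and of the difference, and up to 3 members of each list each way. Acta2, Mki67 and other list members are named by the last clause. Some genes that the rule names are not reported here. Doublets were kept in the main values. Scrublet in scanpy 1.11.5 scored them at an assumed 0.8% per 1000 barcodes, and the 640 and 999 highest barcodes were left out as an alternative. Other alternatives changed the reporter threshold, depth (thinning to 5000 UMIs, bins of depth, a floor of 10000 UMIs), scaling, the gate, the mitochondrial limit, the UMI minimum and the fold limit, or left out cells with UMIs of other types. A threshold of 8 eGFP UMIs, weighting by Pi16 and leaving out the top cell of each gene were chosen after seeing the data. The code was tested on simulated data. Promoter windows are RefSeq's, and 8 of 9 genes sought had one. Figures were drawn with matplotlib 3.10.9.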

Additional observations from a re-analysis of the deposited data

Results flagged for a closer look

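For 12 genes, taken from those named for the highest or lowest ratios or differences and from Tcf21, the log2 ratio of positive over negative fibroblasts had opposite signs in the 2 libraries, with both counting intervals apart from 0. The differences between the libraries were not tested, since each genotype has 1 library. Members named from the gene lists were not searched this way, and some of them, such as Eln, Sqle and Ifi27l2a, had opposite signs too.

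Tcf21 had 0.50 in the control and -0.90 in the deletion-labelled library. Positive in the control and negative in the deletion-labelled library were also Timp1, at 0.84 and -0.28, Cst6, at 0.62 and -0.63, Fdps, at 0.49 and -0.20, and Spon2, at 0.20 and -0.85. The reverse order was seen for Igfbp3, at -0.46 and 2.52, Cytl1, at -0.77 and 1.68, Angptl7, at -0.58 and 1.26, Tgfbi, at -0.18 and 0.84, Comp, at -0.46 and 0.68, Ccl11, at -0.54 and 0.38, and Lifr, at -0.43 and 0.37. Without cells with UMIs of other types the control value was -0.018 for Comp and 0.31 for Igfbp3, and with depth standardised the deletion-labelled value of Timp1 was -0.014.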

How the results depend on the processing

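No paired analysis was possible because only 1 library stands for each group. Tcf21 kept its direction under all 14 alternatives run, with 0.38 to 0.52 in the control, -0.95 to -0.70 in the deletion-labelled library and -1.43 to -1.16 for the difference. Its outermost values, -0.70 and -1.16, came with cells of 1 eGFP UMI counted as positive. Thinned to 5000 UMIs, MerCreMer had 4.52 in the deletion-labelled library and a difference of 0.15 against -2.09, and the shares of fibroblasts with an eGFP UMI were 45.2% and 22.5%. Both MerCreMer values depend on raising the negative sums, of 2 UMIs in the control and 1 in the deletion-labelled library, to 3. Without cells with UMIs of other types 158 genes were higher in the control and the difference of Mmp3 was 0.041 against -1.03. From 10 UMIs upward 377 genes were higher and 543 lower in the control, against 573 and 767 for the deletion-labelled library. With at least 50 UMIs these counts were 52, 91 and, for genes higher in the deletion-labelled library, 153. At a limit of 2-fold they were 17 and 36 in the control, 41 and 186 in the deletion-labelled library, and 133 and 119 for the difference. The cause of these shifts was not tested, except that the MerCreMer values depend on the raised sums and that a stricter limit tests or counts fewer genes. Of 1680 values of named genes under the alternatives 1516 stayed within the main value's counting interval, 163 moved past it and 1, past 1.5-fold in the main analysis, reversed. Values under that limit that changed sign are among those that moved: without cells with UMIs of other types Igfbp3 had 0.31 in the control and Mmp3 0.68 in the deletion-labelled library, and with depth standardised Ecrg4 had -0.32 in the control. Of 1209 list medians 1182 stayed within the median counting error of their members and 27 moved. Without cells with UMIs of other types Cytl1 had 2.95 against 1.68 in the deletion-labelled library, and without its top cells Ecrg4 had -2.69 against -1.04. Depth limits genes under about 30 UMIs, and the deletion-labelled positive group, with 334 cells, is the least precise of the 4.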
